A study of Mus musculus with 6 samples.

Results

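Glycolytic enzymes, glucose and lactate transporters, regulators of pyruvate and fructose-2,6-bisphosphate metabolism, and genes of the hypoxia-inducible factor (HIF) response were described across 6 clonal lines of mpkCCD, a mouse kidney cortical collecting duct line. The genes were taken by symbol from a list of 44, of which 43 were listed among the 20896 transcripts of the table and 42 passed the filter on low reads. Gpi1 was not analysed here, and Ldhb had 0 to 10 reads per library and was not tested. There were 3 clones whose label reads PKA double knockout, for loss of protein kinase A ("dKO" from here on), and 3 control clones, each a separate line with 1 RNA library, so differences between clones other than the knockout cannot be told apart from it. Both groups were grown on permeable supports for 4 days with 2% serum, insulin, dexamethasone, triiodothyronine, epidermal growth factor, selenite and transferrin. Both then received 0.1 nM dDAVP, an agonist of the vasopressin V2 receptor whose signal passes through cyclic AMP and PKA, for 3 days without serum or hormones. No library without dDAVP was analysed here, and the labels give neither the edited genes nor the oxygen tension of the cultures.

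Glycolysis splits glucose into pyruvate, and lactate dehydrogenase turns pyruvate into lactate, which leaves the cell with a proton. HIF is a pair of proteins: an alpha subunit (HIF-1 alpha from Hif1a or HIF-2 alpha from Epas1) and the constant partner ARNT. In the presence of oxygen, prolyl hydroxylases of the EGLN family mark the alpha subunit for destruction through the VHL ubiquitin ligase, so HIF activity is set largely at the level of protein and is not read from Hif1a mRNA. When the alpha subunit persists, HIF binds a short core motif, ACGTG or GCGTG, near genes of glycolysis, of lactate export, of mitophagy and of its own feedback, Egln3 among them. The inner medulla, where collecting ducts end, is poor in oxygen and relies heavily on glycolysis.

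The libraries held 28596444 to 42515838 reads, and levels are given as CPM, the reads on a transcript relative to its library's reads after adjustment by TMM factors of 0.909 to 1.07, or also scaled by transcript length (RPKM) where different genes are compared. Prkaca, which encodes a PKA catalytic subunit, had 6.65, 8.49 and 7.43 CPM in dKO clones 1, 2 and 3 and 133, 75.9 and 90.6 CPM in control clones 1, 2 and 3. Prkacb, which encodes another catalytic subunit, kept most of its RNA. It had 99.1, 105 and 105 CPM in dKO clones and 137, 109 and 116 CPM in control clones. All 15 principal-cell markers examined were detected, with summed levels of 4690 to 4996 CPM in dKO clones and 4925 to 5774 CPM in control clones. These sums lay largely in Krt18 (1530 to 1967 CPM over all libraries), Krt8 (894 to 1096 CPM) and Cdh1 (742 to 1010 CPM). Elf5, Aqp3 and Scnn1b were each at most 3.78 CPM in every library. Aqp2, the vasopressin-regulated water channel of principal cells, was nearly absent from dKO clones (1.82 to 3.39 CPM, against 140 to 399 CPM in control clones). Summed proximal tubule markers were higher, at 701 to 868 CPM in dKO clones and 313 to 411 CPM in control clones, which lay in Lrp2 (687 to 852 CPM in dKO clones, 299 to 392 CPM in control clones). Each of the other 6 proximal markers listed was at most 6.51 CPM in every library. Summed intercalated-cell markers reached 19.4 to 46.1 CPM in dKO clones and 26.8 to 45.2 CPM in control clones, and summed markers of thick limb, fibroblasts, endothelium and leukocytes each at most 7.22 CPM in dKO clones and 9.53 CPM in control clones. The part of the Lrp2 and Aqp2 differences in the results was not tested. Clone 3 of the dKO group and control clone 1 stood apart from the other 4 libraries on the first principal component (-76.8 and -91.7, against 20.9 to 74.1). This component held 68.1% of the variance, so the largest difference among the libraries ran across the groups. Transcripts without a read numbered 2363 and 2443 in these libraries, against 863 to 1045 in the other 4. Values are therefore also given for the 4 libraries without dKO clone 3 and control clone 1.

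Most of the genes lay above zero in the dKO clones, by small amounts. The fold change was positive for 31 of the 42 tested genes, with a median log2 fold change of 0.30 and a range of -1.51 to 1.34. Over all 16683 genes tested, 49.8% were positive and the median was -0.0016. The sign of Kdm3a, at -0.0051, turned when libraries were scaled by their totals alone (0.0031). Bnip3 and Egln3 rose (adjusted p under 0.05; limma-trend with Benjamini-Hochberg adjustment over all genes), against 0.0539% of all genes that passed in this direction, and no gene of the set passed lower, against 0.114%. At an unadjusted p under 0.05 there were 14 genes of the set, 13 higher and 1 lower, against 6.25% of all genes, 2.40% higher and 3.84% lower. In 14 genes every dKO clone was above every control clone, and in 2 every dKO clone was below, against 5.17% and 5.68% of all genes. The set, like the further lists below, was chosen with earlier results of these data known. Counts set against all genes, here and below, therefore describe the lists. Less RNA per cell and fewer cells of one kind cannot be told apart in these bulk libraries.

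**Figure D1:**
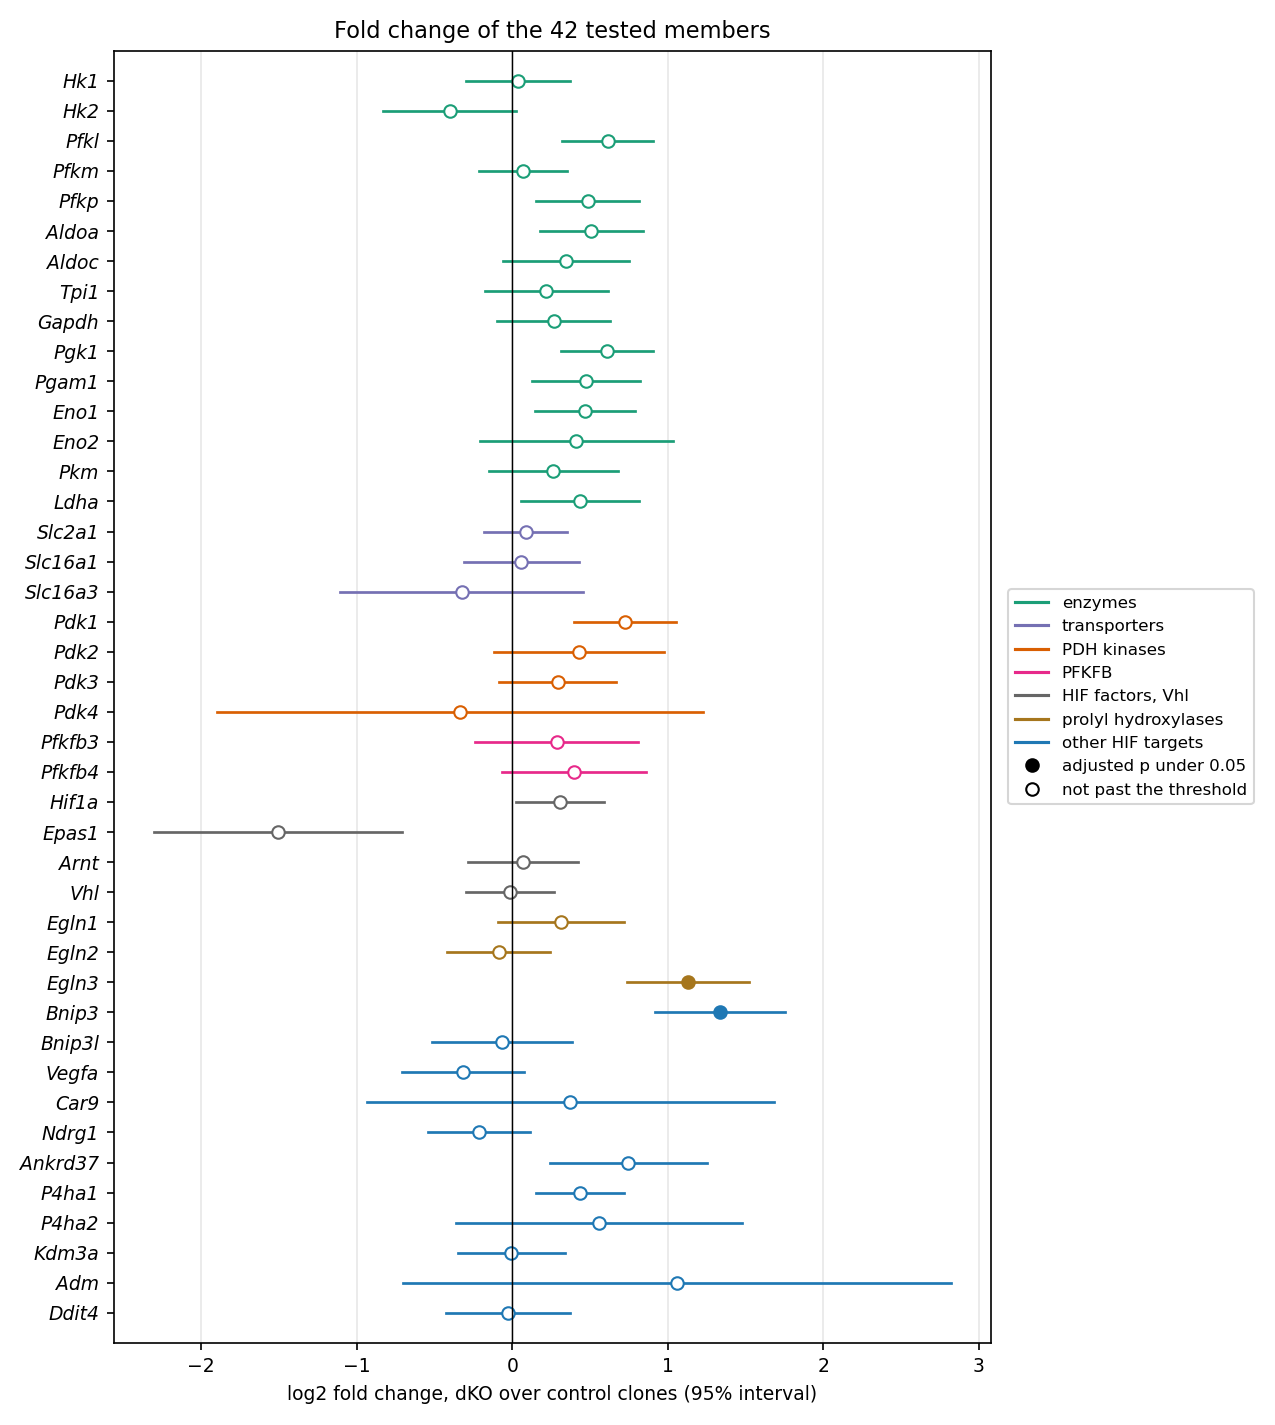
Log2 fold change, dKO over control clones (horizontal axis), with its 95% interval for the 42 tested genes, coloured by role; filled points passed an adjusted p of 0.05. Bnip3 at 1.34 and Egln3 at 1.13 are the filled points, Epas1 at -1.51 is the lowest, and 14 of the 15 enzymes lie to the right of 0 in the fit of all 6 clones, Hk1 among them at 0.04, which was -0.16 in the 4 libraries.

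Promoters were examined for the HIF core because the set was listed for its response to HIF. A promoter was found for 40 of the 43 listed genes; Epas1, Ndrg1 and Bnip3l had none in the table. The core, ACGTG or GCGTG on either strand, was present in the 250 bases before the start of 37 of these 40 (92.5%), against 55.2% of the 12345 tested genes with a promoter and 41.5% of 27025 genes. The set holds genes listed as HIF targets, so this share describes the list. ACGTG alone was present in 24 of 40 (60.0%, against 22.8% of tested genes) and GCGTG in 28 (70.0%, against 44.4%). By role, the core was in 14 of 16 enzymes, 9 of 9 HIF targets, 4 of 4 pyruvate dehydrogenase kinases, 3 of 3 prolyl hydroxylases, 3 of 3 transporters and 2 of 2 PFKFB genes, and in 2 of 3 among Hif1a, Arnt and Vhl. The full cyclic AMP response element TGACGTCA, a binding site of CREB, a transcription factor that PKA phosphorylates, was present in 2 of 40 (Arnt and Ldha), against 2.62% of tested genes. The motifs can overlap one another at their ends, and CACGTG reads as ACGTG on both strands. The 250 upstream bases of the 2 genes that rose, and of Ldha, chosen after the values were seen because it holds both kinds of motif, are given 5′ to 3′ from RefSeq (GRCm38.p6), with the motifs in capitals.
Bnip3 (chr7:138909507-138909756, minus strand): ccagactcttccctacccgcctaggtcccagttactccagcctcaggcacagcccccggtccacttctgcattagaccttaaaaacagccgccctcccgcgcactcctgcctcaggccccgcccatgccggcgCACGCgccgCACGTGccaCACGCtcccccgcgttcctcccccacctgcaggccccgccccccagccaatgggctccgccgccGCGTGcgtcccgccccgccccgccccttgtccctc
Egln3 (chr12:54203875-54204124, minus strand): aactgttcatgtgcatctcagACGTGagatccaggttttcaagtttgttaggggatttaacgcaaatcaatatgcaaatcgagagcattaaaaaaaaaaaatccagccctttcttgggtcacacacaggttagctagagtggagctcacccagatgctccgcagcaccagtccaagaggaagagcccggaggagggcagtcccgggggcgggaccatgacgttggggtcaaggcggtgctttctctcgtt
Ldha (chr7:46845554-46845803, plus strand): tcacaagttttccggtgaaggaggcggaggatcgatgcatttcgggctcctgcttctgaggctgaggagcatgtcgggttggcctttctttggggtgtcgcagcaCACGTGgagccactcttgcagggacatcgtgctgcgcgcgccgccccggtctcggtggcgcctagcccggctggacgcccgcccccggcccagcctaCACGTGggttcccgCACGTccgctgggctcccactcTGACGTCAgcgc
Bnip3 carried GCGTG on the opposite strand 117 to 113 bases before the start, ACGTG on both strands between 108 and 103, and GCGTG on the opposite strand at 99 to 95 and on the printed strand at 35 to 31. Egln3 carried ACGTG on the printed strand at 229 to 225. Ldha carried ACGTG on both strands between 145 and 140 and between 48 and 43, on the opposite strand at 34 to 30, and TGACGTCA at 12 to 5. A match is a description of letters and not evidence of binding.

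Nearly all glycolytic enzyme transcripts lay above zero in the dKO clones, and none passed the adjusted threshold in the main limma fit of all 6 libraries. Of the 15 tested, 14 had a positive fold change and Hk2 a negative one. Hk1, which was positive at 0.04, was at -0.16 in the 4 libraries. The median log2 fold change was 0.41 (0.49 in the 4 libraries, 0.20 between dKO clone 3 and control clone 1). Between those 2 clones 11 of the 15 were positive. Hk2 (-0.69), Eno2 (-0.33), Tpi1 (-0.31) and Gapdh (-0.17) were below zero there. As a share of all reads, without TMM factors, the 16 listed enzymes took 0.690%, 0.656% and 0.591% of the reads in dKO clones 1, 2 and 3, and 0.515%, 0.493% and 0.525% in control clones. The groups did not overlap, with means of 0.646 ± 0.0503% in dKO clones and 0.511 ± 0.0165% in control clones (SD, n = 3 each). The small spread of the control clones depended on leaving out the TMM factors. With them, the median log2 difference of the tested enzymes from the control mean was 0.17, -0.17 and 0.0035 in control clones 1, 2 and 3. In dKO clones 1, 2 and 3 it was 0.41, 0.38 and 0.28. At an unadjusted p under 0.05, 7 of the 15 were higher and 0 lower, against 2.40% and 3.84% of all genes. The same 7 had groups that did not overlap, against 5.17% of all genes. Since the enzymes were listed with earlier results of these data known, these shares describe the list. DESeq2 passed 3 of the 15 as higher, against 0.489% of the 12475 genes to which it gave an adjusted p. The edgeR quasi-likelihood test passed 0, against 0.168% of all genes in both directions. The authors' deposited table gave 6 of the 15 a false discovery rate under 0.05, all higher, against 0.981% of its 10190 genes. These were Pfkl, Pfkp, Aldoa, Pgk1, Pgam1 and Eno1. In limma, Pgk1 passed with library totals alone and with a clone-number block. Pgk1 and Pfkl passed with a term for the 2 libraries that stand apart, and without control clone 1.

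Hexokinase traps glucose as glucose-6-phosphate. Hk1, the housekeeping form, had 407, 404 and 479 CPM in dKO clones and 354, 442.5 and 468 CPM in control clones, and the groups overlapped. Hk2, the form induced by insulin and by HIF, had 49.3, 57.6 and 32.8 CPM in dKO clones and 52.8, 63.9 and 63.9 CPM in control clones. Its log2 fold change was -0.40 (with SE 0.19, adjusted p = 0.845 by limma), and dKO clone 3 was the lowest of the 6 clones.

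Phosphofructokinase commits the sugar to glycolysis. Its liver-type subunit gene Pfkl had 589, 569 and 504 CPM in dKO clones and 379, 351 and 353 CPM in control clones. Every dKO clone was above every control clone, at 1.53-fold (95% interval 1.25 to 1.88; log2 fold change 0.61 with SE 0.13, adjusted p = 0.154 by limma). The platelet-type Pfkp had 142, 164 and 188 CPM in dKO clones and 119, 100.55 and 133 CPM in control clones (log2 fold change 0.49 with SE 0.15, adjusted p = 0.422 by limma). The groups were again apart, by a narrow gap. The muscle-type Pfkm had 51.4 ± 4.00 CPM in dKO clones and 49.1 ± 3.35 CPM in control clones, which overlapped. Pfkp and Pfkm overlap genes on the opposite strand, Pitrm1 and Senp1, and the use of strand in counting was not given in the sources used here.

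Aldolase splits the phosphorylated sugar, and triose phosphate isomerase interconverts its products. Aldoa had 792, 775 and 849 CPM in dKO clones and 637, 501 and 568 CPM in control clones (log2 fold change 0.51 with SE 0.15, adjusted p = 0.382 by limma). All dKO clones were above all control clones. Aldoc, at 27.9 ± 4.39 CPM in dKO clones and 22.1 ± 4.23 CPM in control clones, overlapped between groups. Tpi1 and Gapdh, whose enzyme makes the NADH of the pathway, were among the 4 highest enzymes by length-scaled level. Tpi1 had 848, 817 and 586 CPM in dKO clones and 728, 591 and 600 CPM in control clones. Gapdh had 715, 663 and 528 CPM in dKO clones and 592, 464 and 524 CPM in control clones. In both, dKO clones 1 and 2 were above every control clone and dKO clone 3 was not. Tpi1 overlaps Spsb2 on the opposite strand.

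Phosphoglycerate kinase makes ATP from the product of Gapdh. Pgk1 had 136, 129 and 144 CPM in dKO clones and 104, 79.1 and 86.9 CPM in control clones, 1.52-fold (95% interval 1.24 to 1.87; log2 fold change 0.61 with SE 0.13, adjusted p = 0.158 by limma). The lowest dKO clone was above the highest control clone. The next 2 enzymes, phosphoglycerate mutase and enolase, showed the same order. Pgam1 had 81.7, 93.8 and 102 CPM in dKO clones and 79.4, 54.6 and 67.1 CPM in control clones (log2 fold change 0.48 with SE 0.16, adjusted p = 0.479 by limma). Eno1 had 305, 293 and 340 CPM in dKO clones and 262, 191 and 228 CPM in control clones (log2 fold change 0.47 with SE 0.15, adjusted p = 0.427 by limma). Control clone 1 was the highest control in both. Eno2, the neuronal enolase, was low, at 7.44 ± 2.33 CPM in dKO clones and 5.38 ± 0.617 CPM in control clones.

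Pyruvate kinase ends the pathway and makes ATP again, and lactate dehydrogenase regenerates NAD for Gapdh. Pkm had the highest length-scaled level of the set, averaging 817 RPKM in dKO clones and 683 RPKM in control clones. It had 2069, 1847 and 1987 CPM in dKO clones and 1863, 1436 and 1639 CPM in control clones. The groups overlapped through control clone 1, and the log2 fold change was 0.26 (with SE 0.19, adjusted p = 1.00 by limma). Ldha had 437, 450 and 455 CPM in dKO clones and 421, 259 and 332 CPM in control clones (log2 fold change 0.43 with SE 0.17, adjusted p = 0.668 by limma). The 3 dKO clones were close together and the control clones spread widely below them. RefSeq names 2 or 3 pseudogenes each for Aldoa, Gapdh, Ldha, Pgam1 and Pgk1, and since the handling of reads shared with such copies is unknown here, the values of these genes are uncertain.

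**Figure D2:**
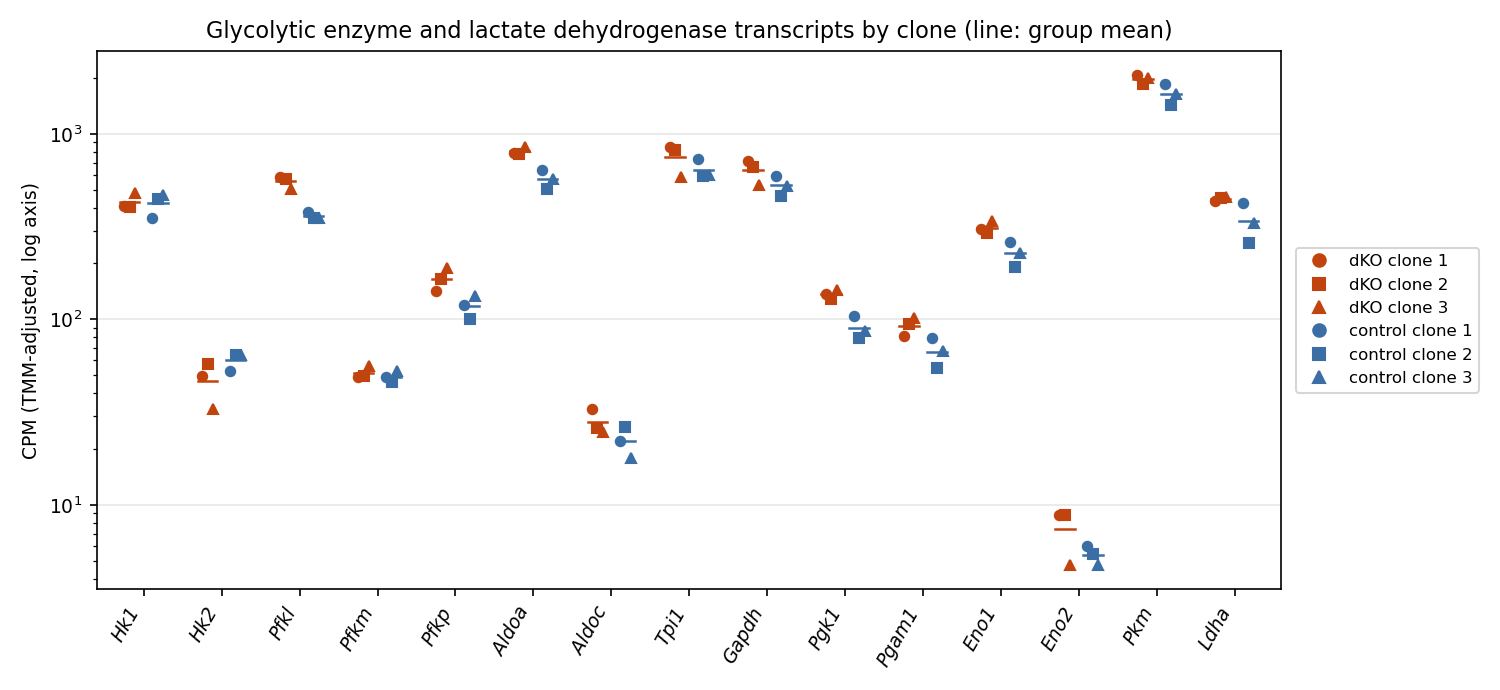
Level of each tested enzyme in the 6 clones (CPM, log axis), dKO clones in orange to the left of control clones in blue, with a line at each group mean. In Pfkl, Pfkp, Aldoa, Pgk1, Pgam1, Eno1 and Ldha the 3 dKO clones lie above the 3 control clones, from Pgam1 with 81.7 CPM against 79.4 CPM at the gap to Pfkl with 504 CPM against 379 CPM.

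The 4 tested enzymes encoded on chromosome 6 followed another order among the dKO clones. Hk2, Tpi1, Gapdh and Eno2 were each lower in dKO clone 3 than the mean of dKO clones 1 and 2, by log2 differences of -0.70, -0.51, -0.38 and -0.88. Of the 877 tested genes on this chromosome, 91.4% were lower in dKO clone 3 by the same measure, with a median of -0.46, against 49.4% and a median of 0.0075 over all genes. Chromosome 14 showed the same (95.3% of 573 genes, median -0.46), and chromosomes 6 and 14 were the lowest in that clone. All 7 tested genes of the set on chromosome 6 were lower in dKO clone 3 (-1.36 to -0.14), as was Bnip3l on chromosome 14 (-0.68). The enzymes elsewhere had a median log2 fold change of 0.47 with 11 of 11 positive, against 0.24 with 3 of 4 on chromosome 6. Hk1 was the 1 of the 11 that was negative in the 4 libraries. With each library's chromosome medians removed, the medians were 0.41 elsewhere and 0.41 on chromosome 6. The difference between these 2 groups of enzymes was not tested, and they were set apart after the values were seen.

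**Figure D3:**
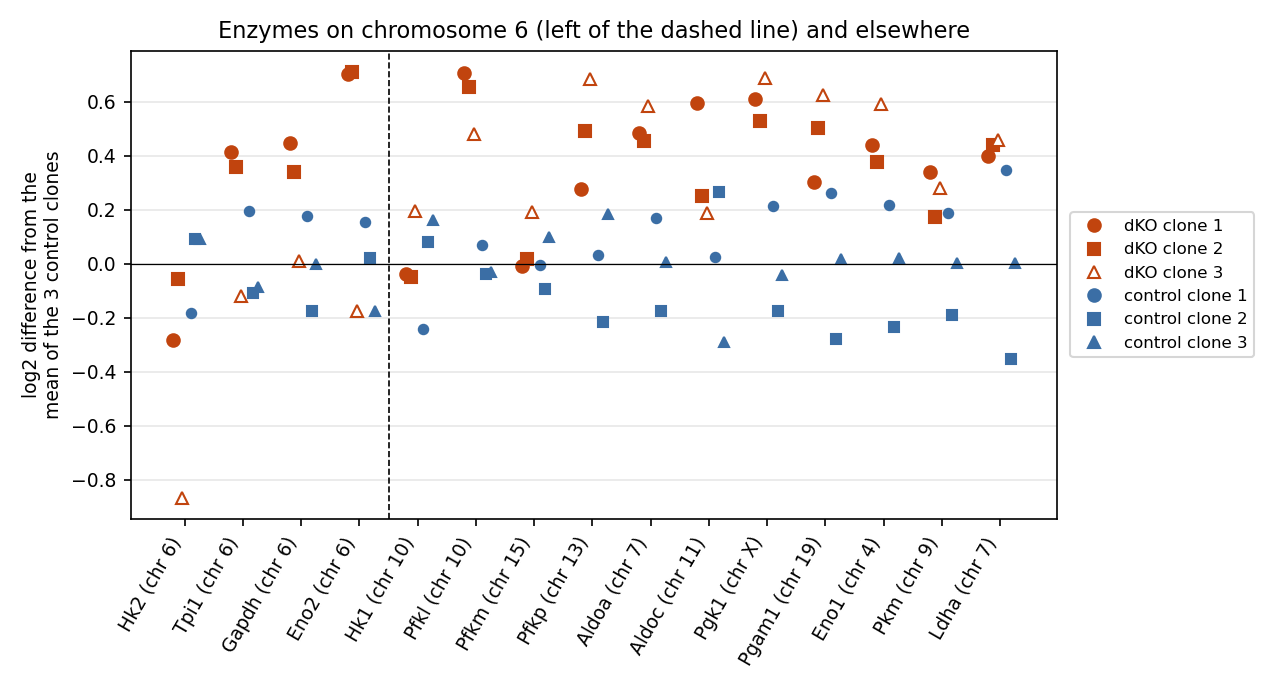
Log2 level of each enzyme in each clone minus the mean of the 3 control clones, with the 4 enzymes of chromosome 6 left of the dashed line and the other 11 right of it; open triangles are dKO clone 3. On chromosome 6 dKO clone 3 lies below dKO clones 1 and 2 in all 4 enzymes (-0.88 to -0.38 below their mean), whereas elsewhere it is below their mean in 2 of 11.

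The 3 transporters had log2 fold changes of -0.32 to 0.09. Of them, 0 passed in limma or edgeR (0.168% of all genes in each) or in DESeq2 (1.71% of 12475 genes). At an unadjusted p under 0.05 there were 0, against 6.25% of all genes. Slc2a1 encodes GLUT1, the glucose carrier that HIF raises in many cells, and had 72.7, 80.9 and 86.9 CPM in dKO clones and 73.8, 74.8 and 77.4 CPM in control clones. The 95% interval of its log2 fold change was -0.18 to 0.35. Slc16a1 encodes the lactate and proton carrier MCT1 and was the highest of the 3 transporters, with 205, 239 and 320 CPM in dKO clones and 216, 248 and 259 CPM in control clones. Both genes overlapped between the groups, and the sign of Slc16a1 was positive in all 6 libraries together (0.06) and negative in the 4 libraries (-0.19). Slc16a3, which encodes the lactate exporter MCT4 and is a HIF target in many cells, was scarce, with 1.62, 1.58 and 1.80 CPM in dKO clones and 1.99, 2.10 and 2.21 CPM in control clones. Every dKO clone was below every control clone, by a log2 fold change of -0.32 (with SE 0.35, adjusted p = 1.00 by limma).

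Pyruvate dehydrogenase kinases shut the entry of pyruvate into the mitochondrial citric acid cycle. Pdk1, the isoform best known as a HIF target, had 226, 269 and 211 CPM in dKO clones and 165, 139 and 124 CPM in control clones. The groups did not overlap, at 1.65-fold (95% interval 1.32 to 2.07; log2 fold change 0.72 with SE 0.15, adjusted p = 0.114 by limma). Pdk2, Pdk3 and Pdk4 overlapped between groups, at log2 fold changes of 0.43, 0.29 and -0.34. That of Pdk2 was 0.022 in the 4 libraries and 1.25 between dKO clone 3 and control clone 1. Pdk4 was near the floor of detection (0.707 ± 0.417 CPM in dKO clones and 0.971 ± 0.777 CPM in control clones). The PFKFB enzymes make and break fructose-2,6-bisphosphate, the activator of phosphofructokinase. Pfkfb3 had 31.3, 39.4 and 53.1 CPM in dKO clones and 47.1, 28.9 and 26.6 CPM in control clones, and control clone 1 lay inside the dKO range. Pfkfb4 had 8.61, 10.4 and 12.99 CPM in dKO clones and 7.55, 8.09 and 8.31 CPM in control clones, which did not overlap (log2 fold change 0.40 with SE 0.21, adjusted p = 0.917 by limma).

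The 2 HIF alpha subunits lay on opposite sides of zero. Hif1a had 438, 468 and 475 CPM in dKO clones and 389, 347 and 383 CPM in control clones, apart by a log2 fold change of 0.31 (with SE 0.13, adjusted p = 0.716 by limma). Epas1 had 3.06, 1.71 and 2.02 CPM in dKO clones and 10.1, 4.65 and 5.46 CPM in control clones. Every dKO clone was below every control clone, 2.85-fold lower (95% interval 1.64 to 4.95; log2 fold change -1.51, SE 0.36), yet the limma adjusted p was 0.208. The DESeq2 test passed it (adjusted p = 0.00722), and in the 4 libraries the log2 fold change was -1.11 (adjusted p = 0.0711 by limma). Epas1 stood far below Hif1a in level, at 0.429 RPKM in dKO clones and 1.28 RPKM in control clones, against 98.1 and 79.4 RPKM for Hif1a. Arnt had 67.0 ± 9.82 CPM in dKO clones and 64.1 ± 11.7 CPM in control clones, and Vhl had 44.7 ± 3.08 CPM in dKO clones and 45.1 ± 3.23 CPM in control clones. Both overlapped between groups, with 95% intervals of -0.29 to 0.42 and -0.30 to 0.27 for their log2 fold changes.

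Of the prolyl hydroxylases that destabilise HIF, Egln3 rose. Egln3 (ENSMUSG00000035105.5; GRCm38 chromosome 12, 54178981 to 54203860, minus strand, 5 exons), itself a HIF target, had 40.0, 48.5 and 33.9 CPM in dKO clones and 21.9, 16.0 and 17.7 CPM in control clones. The lowest dKO clone was above the highest control clone, and the means were 40.8 ± 7.34 CPM in dKO clones and 18.5 ± 3.04 CPM in control clones (SD, n = 3 each). This was 2.19-fold (95% interval 1.67 to 2.88; log2 fold change 1.13 with SE 0.18, adjusted p = 0.038 by limma). The log2 fold change was 1.39 in the 4 libraries and 0.63 between dKO clone 3 and control clone 1. The call was lost on leaving out control clone 2 (adjusted p = 0.0779), control clone 3 (0.0557), dKO clone 1 (0.130) or dKO clone 2 (0.174), and also when chromosome medians were removed (0.107), with library totals alone (0.0506) and on FPKM (0.065), all adjusted p by limma. Egln2, the highest of the 3 by length-scaled level, had 61.7, 50.4 and 71.9 CPM in dKO clones and 70.6, 60.2 and 63.1 CPM in control clones. Egln1, the main oxygen sensor of most cells, had 64.4 ± 10.2 CPM in dKO clones and 52.3 ± 12.7 CPM in control clones. Both overlapped between groups.

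Among the 11 HIF targets outside glycolysis, Bnip3 rose and the others were mixed. Bnip3 (ENSMUSG00000078566.8; GRCm38 chromosome 7, 138890836 to 138909506, minus strand, 6 exons) encodes a mitochondrial outer membrane receptor for mitophagy. It had 57.4, 78.02 and 49.0 CPM in dKO clones and 28.2, 20.4 and 23.6 CPM in control clones. The groups were well apart, with means of 61.5 ± 14.9 CPM in dKO clones and 24.0 ± 3.91 CPM in control clones (SD, n = 3 each). This was 2.53-fold (95% interval 1.89 to 3.37; log2 fold change 1.34 with SE 0.19, adjusted p = 0.0248 by limma). The log2 fold change was 1.61 in the 4 libraries and 0.80 between dKO clone 3 and control clone 1, and the call was lost without dKO clone 1 (adjusted p = 0.0602 by limma) and without dKO clone 2 (0.0848). The promoter of Bnip3, printed with that of Egln3, holds 5 matches to the core. Its paralog Bnip3l, also a mitophagy receptor, had 155, 178 and 104 CPM in dKO clones and 183, 141 and 126 CPM in control clones, which overlapped.

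Ankrd37, a small ankyrin repeat protein gene and HIF target, had 10.3, 14.001 and 10.9 CPM in dKO clones and 8.80, 5.63 and 6.65 CPM in control clones (log2 fold change 0.75 with SE 0.23, adjusted p = 0.422 by limma). P4ha1, a catalytic subunit of collagen prolyl hydroxylase, had 181, 186 and 154 CPM in dKO clones and 117, 137 and 130 CPM in control clones (log2 fold change 0.44 with SE 0.13, adjusted p = 0.379 by limma). In both genes every dKO clone was above every control clone; Ankrd37 overlaps Ufsp2 on the opposite strand. The related P4ha2 had 6.72, 5.38 and 6.48 CPM in dKO clones, against 9.24, 2.91 and 2.67 CPM in control clones, where clone 1 was above all dKO clones.

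The other HIF targets did not pass in all 6 libraries. Vegfa, the angiogenic growth factor gene, had 53.8, 66.0 and 74.0 CPM in dKO clones and 62.8, 83.7 and 96.5 CPM in control clones, which overlapped at a log2 fold change of -0.32 (with SE 0.18, adjusted p = 0.937 by limma). In the 4 libraries its log2 fold change was -0.58 and passed (adjusted p = 0.019 by limma), while between dKO clone 3 and control clone 1 it stood at 0.24. Ndrg1, a stress-response gene, had 159 ± 22.8 CPM in dKO clones and 184 ± 25.3 CPM in control clones. Ddit4, an inhibitor of mTORC1 signalling and the highest target by length-scaled level, had 151, 94.4 and 98.5 CPM in dKO clones and 117, 100.52 and 126 CPM in control clones. Kdm3a, a histone demethylase gene, had 148 ± 28.4 CPM in dKO clones and 146 ± 10.4 CPM in control clones. Car9, the cell-surface carbonic anhydrase often used as a HIF marker, was near the floor, at 0.686 ± 0.132 CPM in dKO clones and 0.516 ± 0.0878 CPM in control clones. Adm, encoding adrenomedullin, was as low, at 1.07 ± 0.576 CPM in dKO clones and 0.620 ± 0.575 CPM in control clones. The median log2 fold change of the 11 targets was 0.37, with 6 positive and 5 negative. This median is the value of Car9, a gene near the floor. The values on either side of it were 0.44 (P4ha1) and -0.0051 (Kdm3a), so the median does not describe a shared shift of these targets.

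**Figure D4:**
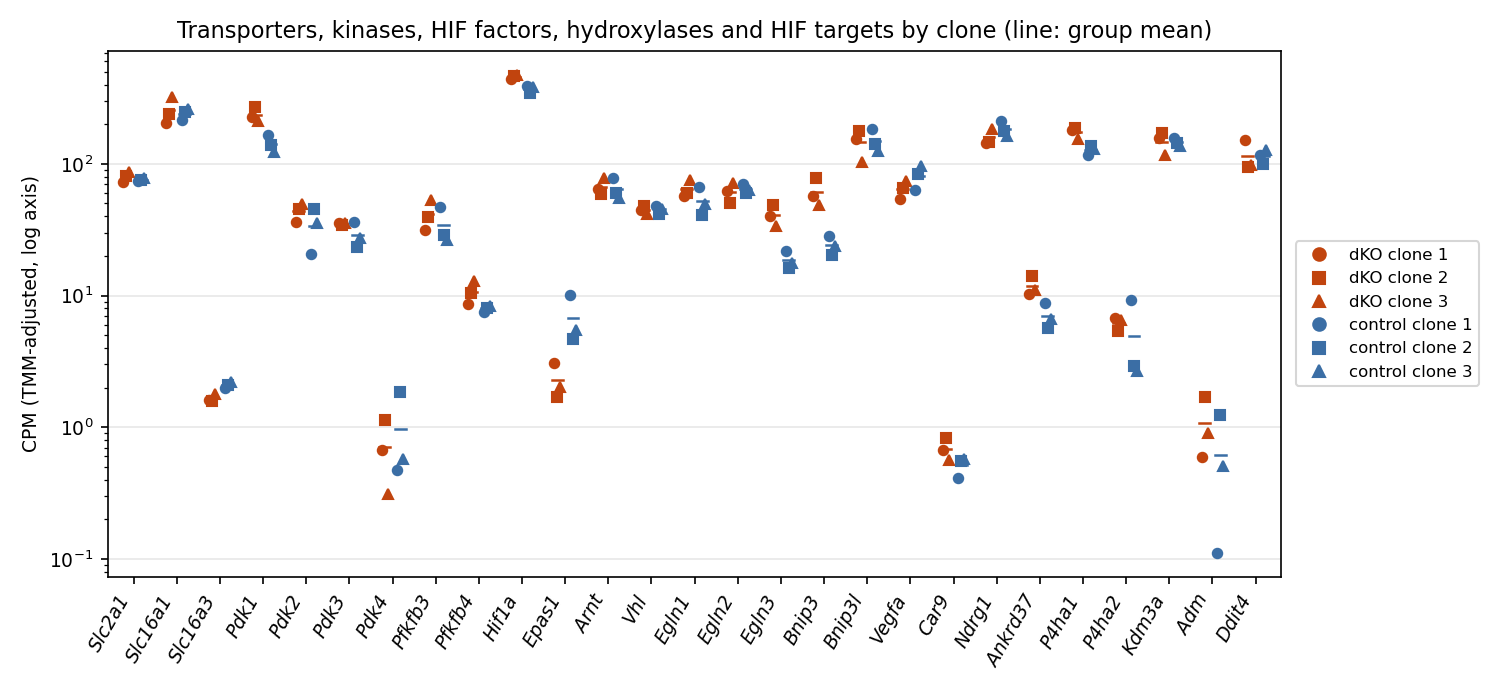
Level of each remaining tested gene in the 6 clones (CPM, log axis), dKO clones in orange to the left of control clones in blue, with a line at each group mean. Bnip3 (49.0 to 78.02 CPM in dKO clones, 20.4 to 28.2 CPM in control clones), Egln3 and Pdk1 are separated upwards and Epas1 downwards, while Slc2a1, Arnt and Vhl overlap.

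Within the 4 libraries without dKO clone 3 and control clone 1, 12 genes of the set passed higher and 1 lower, against 1.53% and 1.47% of all genes tested there. The 12 were Aldoa, Eno1, Ldha, Pfkl, Pgam1, Pgk1, Pdk1, Egln3, Bnip3, Ankrd37, P4ha1 and P4ha2, and the lower one was Vegfa. These calls rest on fewer clones, since dKO clone 3 and control clone 1 were left out for their place on the first principal component. The median log2 difference of the enzymes from the control mean was 0.17, -0.17 and 0.0035 in control clones 1, 2 and 3. Between dKO clone 3 and control clone 1, P4ha2 stood below zero (-0.51) and the rest of the 12 above it. DESeq2 passed 6 genes higher and 1 lower in all 6 libraries, against 0.489% and 1.22% of the 12475 genes to which it gave an adjusted p. The higher ones were Aldoa, Pfkl, Pgk1, Pdk1, Egln3 and Bnip3, and the lower one was Epas1. Pdk4, Car9 and Adm received no adjusted p from DESeq2. In the authors' deposited table, which listed 38 of the genes, 9 had a false discovery rate under 0.05 and a positive fold change and 1 a negative one, against 0.981% and 2.49% of its 10190 genes (3.47% in both directions). The 9 were Pfkl, Pfkp, Aldoa, Pgk1, Pgam1, Eno1, Pdk1, Egln3 and Bnip3, and the lower one was Epas1. The authors' deposited table gave Bnip3 a log2 fold change of 1.35, Egln3 1.14 and Epas1 -1.55.

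Of the 9 shares of a gene within its family, that of Egln3 differed by the most percentage points. Egln3 made up 24.8%, 30.7% and 18.6% of the length-scaled level of Egln1, Egln2 and Egln3 in dKO clones 1, 2 and 3, and 13.6%, 13.0% and 13.1% in control clones. The groups did not overlap, with a difference of 11.5 percentage points. Epas1 made up 0.619%, 0.324% and 0.377% of the summed level of Hif1a and Epas1 in dKO clones and 2.26%, 1.18% and 1.25% in control clones. Slc16a3 made up 1.45%, 1.21% and 1.03% of the 2 lactate carriers in dKO clones and 1.69%, 1.55% and 1.56% in control clones. These last 2 shares were lower in every dKO clone. An exact two-sided permutation test gave p = 0.1 for each of the 3 shares, the smallest it can give with 3 clones a group, and 0.3 after adjustment over the 9 shares examined. Pdk1 held 55.4 ± 3.93% of the 4 pyruvate dehydrogenase kinases in dKO clones and 48.3 ± 5.19% in control clones (exact permutation p = 0.2), and Hk2 held 7.85 ± 2.53% of the 2 hexokinases in dKO clones and 10.0 ± 0.405% in control clones (0.2). Pfkl, at 71.8 ± 4.05% in dKO clones and 67.9 ± 2.51% in control clones, was the main phosphofructokinase gene in both groups (0.3). Aldoc and Eno2 made up at most 4.54% of their pairs in any clone and Ldha at least 99.9%, and the differences between groups were -0.40, 0.015 and 0.015 percentage points (0.6, 0.9 and 0.8). The sign for Eno2 turned with the deposited FPKM (-0.058).

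**Figure D5:**
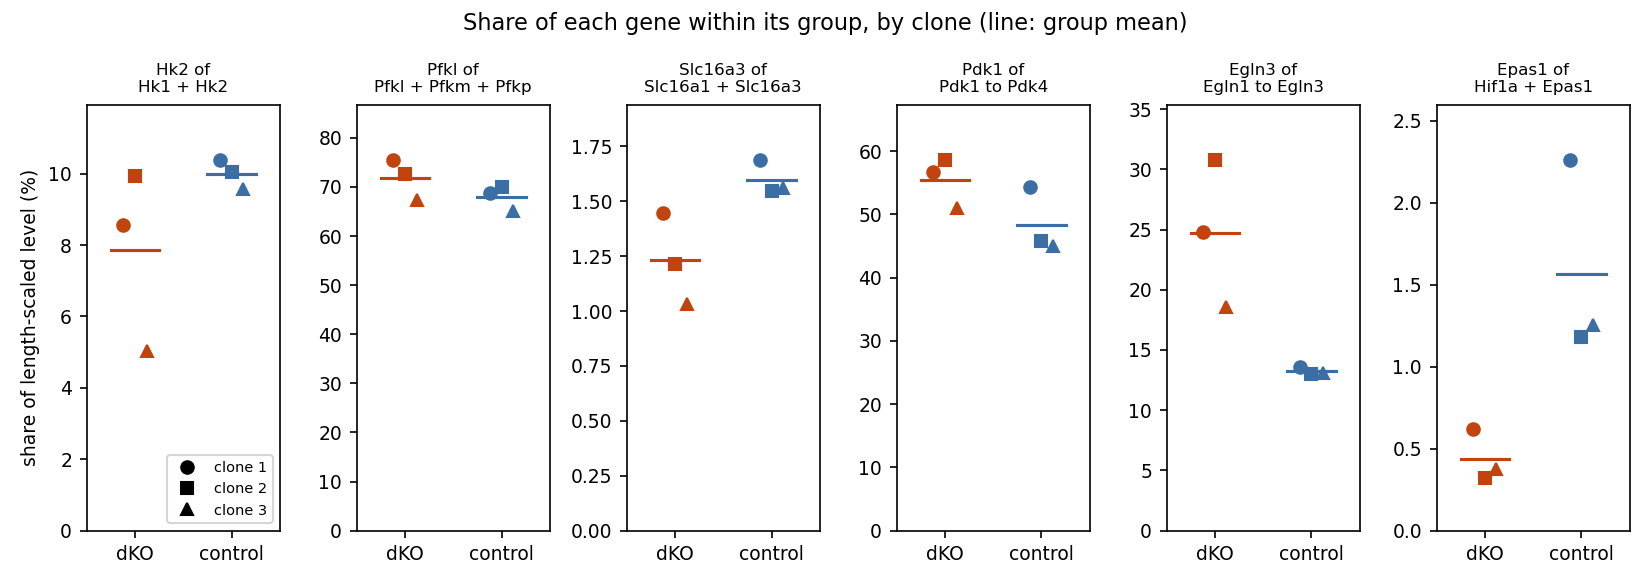
Share of 6 genes within their family (percent of length-scaled level, linear axes from 0), dKO clones left of control clones, with a line at each group mean and a marker per clone. The Egln3 share is 18.6% to 30.7% in dKO clones and 13.0% to 13.6% in control clones, and the Epas1 share is 0.324% to 0.619% in dKO clones and 1.18% to 2.26% in control clones.

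In 5 further lists of genes from these pathways, 0 passed the adjusted threshold in limma or in edgeR's quasi-likelihood test, against 0.168% of all genes in each. DESeq2 passed Pck2 and H6pd as lower, against 1.22% of the 12475 genes to which it gave an adjusted p. With such small shares over all genes, these counts say little about the lists. In the 4 libraries limma passed 4 further HIF targets as higher (Bhlhe40, Fam162a, Mif and Plod2, at log2 fold changes of 0.57 to 0.85 and adjusted p of 0.000296 to 0.0280), against 1.53% of all genes tested there. It passed Selenbp1 of the same list, G6pc3 and Pck2 of glycolysis and gluconeogenesis, and H6pd of the pentose phosphate pathway as lower, against 1.47%. Genes named here for this result were chosen after their values were seen. Between dKO clone 3 and control clone 1, Bhlhe40 and Selenbp1 stood on the other side of zero (log2 fold changes of -0.70 and 1.33, against 0.85 and -0.97 in the 4 libraries). Of 35 further HIF targets tested, 23 were positive, against 49.8% of all genes, with a median log2 fold change of 0.10. At an unadjusted p under 0.05, 6 were higher and 0 lower, against 2.40% and 3.84% of all genes. The lowest p belonged to Fam162a, a mitochondrial HIF-induced gene (48.9 ± 0.871 CPM in dKO clones and 31.5 ± 7.84 CPM in control clones, log2 fold change of 0.66, adjusted p = 0.270 by limma). Mif, a cytokine gene, followed at 0.47, and Higd1a, which encodes a mitochondrial respiratory protein, at 0.43. Of 27 other genes of glycolysis and gluconeogenesis, 13 were positive, with a median of -0.03, and 0 were higher and 2 lower at an unadjusted p under 0.05. Pck2, the mitochondrial phosphoenolpyruvate carboxykinase, had 125 ± 16.4 CPM in dKO clones and 195 ± 11.1 CPM in control clones (log2 fold change of -0.65, adjusted p = 0.114 by limma), and lies on chromosome 14. G6pc3, a glucose-6-phosphatase gene, had 2.47 ± 1.38 CPM in dKO clones and 6.14 ± 0.843 CPM in control clones (log2 fold change of -1.42, adjusted p = 0.275 by limma). Slc2a4, the insulin-responsive glucose carrier, had the next lowest p (log2 fold change of 0.61, adjusted p = 0.955 by limma).

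The pentose phosphate pathway drains glucose-6-phosphate to make NADPH. Of its 10 genes tested, 0 were higher and 2 lower at an unadjusted p under 0.05, against 2.40% and 3.84% of all genes. H6pd, the dehydrogenase of the endoplasmic reticulum, had 171 ± 23.7 CPM in dKO clones and 265 ± 46.2 CPM in control clones (log2 fold change of -0.63, adjusted p = 0.247 by limma). G6pdx, the first enzyme of the cytosolic pathway, had 71.9 ± 4.599 CPM in dKO clones and 93.0 ± 15.7 CPM in control clones (log2 fold change of -0.36, adjusted p = 0.678 by limma), and Tktl1, a transketolase-like gene, averaged 0.635 ± 0.365 CPM in dKO clones and 0.188 ± 0.117 CPM in control clones. Of 10 genes of the pyruvate dehydrogenase complex and pyruvate entry, 0 were higher and 1 lower at that p, against the same shares. The lower one was Pcx, pyruvate carboxylase (67.7 ± 9.66 CPM in dKO clones and 94.4 ± 16.7 CPM in control clones, log2 fold change of -0.47, adjusted p = 0.486 by limma). Pdhb and Dlat, subunits of the complex, followed at log2 fold changes of 0.27 and 0.22. Of 15 genes of HIF stability and coactivation, 0 had an unadjusted p under 0.05, against 6.25% of all genes, so this count says little about the list. The lowest p belonged to Sdhb (log2 fold change 0.22), Crebbp (-0.21) and Siah2 (-0.20).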

How the data were processed

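RNA of 6 clones was depleted of ribosomal RNA and made into stranded libraries, per the labels' protocols. Per the submitters' processing notes, the build was GRCm38.p5 and the tools were edgeR, HOMER 4.8, SAMtools and STAR 2.5.2a, whose roles are not stated there. Exon counts are from GENCODE M21, and coordinates from the deposited table. The deposited read columns are a signal, since the authors brought all libraries to the same sum. Dividing by each library's step gave whole reads for 100% of values (tolerance 0.01 scaled reads), from which CPM and RPKM were computed with library sizes multiplied by TMM factors (0.909 to 1.07). Enzyme shares are of all reads, with no such factor. The authors also deposited FPKM values, transcript lengths in bases, and a comparison table that holds, per the file headers, edgeR's log2 fold change, log2 CPM, false discovery rate and p-value.

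Because the read columns as deposited are not counts, differences were tested by limma-trend in R 4.3.3 (limma 3.58.1) on log2 of TMM-adjusted scaled reads (edgeR 4.0.16) with a pseudocount of 1 scaled read (0.055 CPM), which understates changes of low genes. filterByExpr (minimum 10 reads, total 15) kept 16683 transcripts and excluded 4213, and p-values were adjusted by Benjamini-Hochberg over all of them at a threshold of 0.05. The p-values rest on the spread between clones of 1 library each. Libraries of a group differed beyond sampling noise (chi-square per degree of freedom 16.6 to 55.3), so none was counted as a repeat. Alternatives were the edgeR quasi-likelihood test, DESeq2 1.42.0, limma-voom, other scalings, pseudocounts and filters, FPKM, a clone-number term, leaving out each clone, the 4 libraries without dKO clone 3 and control clone 1, and removing chromosome medians. The quasi-likelihood test, DESeq2 and limma-voom were run on the recovered whole reads. Tested on simulated data for 16683 genes, the method found 23.9% of 1.5-fold, 59.7% of 2-fold and 86.4% of 4-fold changes, and 5 of its 118 calls were false. The simulated noise was independent between genes. It held none of the differences that many genes of a clone share here, such as the first principal component or chromosomes 6 and 14 in dKO clone 3. These rates therefore need not hold for these libraries.

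Members and lists were chosen with earlier results of these data known. Values in every clone are given for members past the threshold, with an unadjusted p under 0.05, called by another tool, or highest in their role group; for further lists the 3 genes with the lowest p are named. Other members with per-clone values were chosen after their values were seen.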

Additional observations from a re-analysis of the deposited data

How the results depend on the processing

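With 2 genes of the set past the threshold in all 6 clones, the count was 7 with DESeq2, 1 on FPKM, 4 with a term for the 2 libraries that stand apart, 13 in the 4 libraries and 1 with chromosome medians removed, and ran from 0 to 5 when a clone was left out. It was 0 without dKO clone 1 or dKO clone 2. Over all genes the count of 28 became 213 with DESeq2, 17 with library totals only, 91 on FPKM, 71 with the term and 518 in the 4 libraries, and 11 to 146 when a clone was left out. The cause was not tested. With the clone number as a replicate block, the counts were 196 over all genes and 5 in the set; deviations of same-numbered clones correlated over genes at r = 0.639 for clones numbered 2 but at -0.357 and -0.339 for numbers 1 and 3, so the numbers were not taken to pair the clones. The fold change of Pdk2 ran from 0.022 in the 4 libraries to 0.67 without control clone 2. The enzyme median of 0.41 ran from 0.27 to 0.49 when a clone was left out. The median of the other HIF targets, 0.37, was 0.21 with a pseudocount of 10 and 0.23 on FPKM, and 0.24 to 0.50 when a clone was left out. In the main fit it is the value of Car9, which is near the floor, and the fold change of Car9 alone ran from 0.21 to 0.50 over the alternatives.

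Some signs turned. In the 4 libraries these were Hk1 (-0.16), Slc16a1 (-0.19), Vhl (0.087), Bnip3l (0.32), Kdm3a (0.22) and Ddit4 (0.092). With chromosome medians removed they were Vhl (0.16), Bnip3l (0.14) and Kdm3a (0.16). On FPKM they were Vhl (0.0018), Kdm3a (0.0093) and the Eno2 share (-0.058 percentage points). Kdm3a also turned with edgeR's quasi-likelihood test (0.012), DESeq2 (0.0031) and library totals only (0.0031), and Ddit4 with the quasi-likelihood test (4.95e-06). Leaving out a clone gave ranges over zero: Hk1 -0.082 to 0.12, Slc16a1 -0.11 to 0.20, Pdk4 -0.74 to 0.24, Arnt -0.041 to 0.22, Vhl -0.073 to 0.039, Egln2 -0.20 to 0.049, Bnip3l -0.23 to 0.17, Kdm3a -0.12 to 0.17, Ddit4 -0.24 to 0.10, and, for shares in percentage points, Aldoc -0.74 to 0.14, Eno2 -0.19 to 0.38, Ldha -0.012 to 0.042. The other shares kept their sign. At the low levels of Pdk4, Car9 and Adm the 95% intervals of the log2 fold change were wide, from -1.90 to 1.22, -0.93 to 1.68 and -0.70 to 2.82.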
